A study of Mus musculus with 23 samples.

Results

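The inflammasome and pyroptosis genes described here were 9 genes: Nlrp3, Aim2, Naip5, Pycard, Casp1, Casp4, Gsdmd, Ripk3 and Mlkl. They were taken by symbol, as the rows of the deposited count table whose Ensembl ID carries one of these names in GENCODE mouse release M21, from 41388 genes in all. All 9 passed the filter on low counts, as did 17148 genes of the table. Whole lungs of male Balb/c mice had been sequenced, with 1 library per mouse. Daily over 3 days, the animals spent 10 min in clean air or in aerosolized lipopolysaccharide from bacteria (LPS, 0.21 mg/ml), and 1 h after each exposure they were injected intraperitoneally with saline or with human alpha1-antitrypsin (AAT, 4 mg/kg), a plasma inhibitor of neutrophil elastase. The last dose preceded removal of the lungs by 6 h. The groups were air with saline (air, n = 3), LPS with saline (LPS, n = 5), and LPS with native (LPS+nAAT, n = 5), oxidized (LPS+oxAAT, n = 5) or recombinant AAT (LPS+recAAT, n = 5). No group received AAT without LPS, and AAT is a human protein in a mouse host.

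Inflammasomes are cytosolic complexes in which a sensor protein, often through the adaptor ASC (Pycard), activates caspase-1, which then matures the cytokines interleukin-1 beta and interleukin-18. Inflammatory caspases also cleave gasdermin D, whose N-terminal part forms pores in the plasma membrane and causes the lytic death called pyroptosis. In macrophages LPS is the classical priming signal that raises transcription of Nlrp3 and Il1b, whereas activation of the complex itself is post-translational and is not measured by RNA. Ripk3 and Mlkl carry out necroptosis, another lytic death that can feed into the NLRP3 inflammasome.

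Depth was 14.8 to 47.9 M counts in genes (median 28.7 M). Levels are given as CPM (counts scaled to library size, with TMM factors), with the mean ± SD of each group, and a gene was called changed at an adjusted p under 0.05 over all tested genes in edgeR's quasi-likelihood test. Counts of the mitochondrial gene mt-Nd6 were 0.338% to 1.14% of those of mt-Nd5 in 15 libraries (first set) but 3.39% to 4.5% in 8 (second set), a division on which the labels are silent. The first set held LPS+oxAAT replicates 5101 and 5102 and every library of air, LPS and LPS+nAAT. The other 3 LPS+oxAAT libraries and all 5 LPS+recAAT libraries were in the second, so for LPS+recAAT the set and the treatment can be separated only through the LPS+oxAAT libraries. Summed levels of 10 alveolar type 2 cell markers were 27700 to 36800 CPM across the air libraries, as the lung label calls for. The 9 genes are expressed in immune cells as well as in lung tissue cells, and in whole lung more cells of a type and more RNA per cell cannot be told apart.

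RefSeq promoter windows of GRCm38.p6 (the C57BL/6J reference, not Balb/c), the 250 bases before the annotated start, were found for 8 of the 9 genes. They are shown for the 2 genes whose level was called higher in any group, Nlrp3 and Casp4, and for Casp1, the neighbour of Casp4 on chromosome 9, which was not called. Capitals mark matches on either strand to GGGNNNNNCC, a relaxed form of the sequence bound by NF-kB, the transcription factor activated downstream of the LPS receptor.

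Nlrp3 (chr11:59541319-59541568, plus strand): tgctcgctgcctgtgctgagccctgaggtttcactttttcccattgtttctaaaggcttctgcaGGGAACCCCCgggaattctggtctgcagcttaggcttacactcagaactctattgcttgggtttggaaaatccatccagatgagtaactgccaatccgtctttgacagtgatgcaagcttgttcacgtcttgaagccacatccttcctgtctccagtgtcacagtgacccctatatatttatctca
Casp4 (chr9:5308599-5308848, plus strand): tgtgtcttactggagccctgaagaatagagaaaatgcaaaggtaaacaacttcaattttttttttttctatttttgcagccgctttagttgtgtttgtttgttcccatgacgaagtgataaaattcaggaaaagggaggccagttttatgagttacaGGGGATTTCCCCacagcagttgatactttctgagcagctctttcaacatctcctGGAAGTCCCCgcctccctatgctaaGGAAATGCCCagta
Casp1 (chr9:5298267-5298516, plus strand): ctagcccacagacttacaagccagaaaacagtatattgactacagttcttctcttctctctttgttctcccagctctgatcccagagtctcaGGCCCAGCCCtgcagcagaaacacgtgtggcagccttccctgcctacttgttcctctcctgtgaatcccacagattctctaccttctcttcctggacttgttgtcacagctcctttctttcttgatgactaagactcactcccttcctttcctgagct

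The Nlrp3 window held 1 stretch of matching letters, 186 to 177 bases before the start. The Casp4 window held 3, of which the farthest from the start was an overlapping run 93 to 82 bases before it and the nearest lay 14 to 5 bases before it. The Casp1 window held 1 stretch, 158 to 149 bases before the start. These letters are common: 15046 of 32851 mouse promoter windows (45.8%) held them. Of the 8 genes, 4 held them in at least 1 of their windows, the fourth being Naip5. The first share is per window and the second per gene, so they are not like for like. A second RefSeq start of Nlrp3, 1118 bases downstream of the GENCODE gene start, held no match. Letters of the interferon-stimulated response element (GAAANNGAAA) and of the gamma-activated site (TTCNNNGAA), searched on both strands, were in 0 of the 8 genes' windows and in 2.98% and 7.02% of all windows. A match is a description of the letters and does not show binding.

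In length-scaled terms Gsdmd was the most abundant of the 9 genes and Naip5 the least. Mean levels over the 23 libraries were 28.2 CPM per kb of exon for Gsdmd, 7.84 for Casp1, 5.93 for Casp4, 4.04 for Ripk3, 3.86 for Mlkl, 2.88 for Aim2, 2.47 for Pycard, 2.46 for Nlrp3 and 1.98 for Naip5. Gsdmd lay above every other gene in every library, with a lowest value of 22 CPM per kb. In air the ranges of Ripk3 (3.01 to 3.86 CPM per kb) and Mlkl (3.87 to 4.55) were next to each other, while those of Nlrp3 (1.44 to 1.95), Pycard (1.45 to 2.52) and Naip5 (1.62 to 2.26) overlapped. After LPS alone the ranges of Ripk3 (4.03 to 4.75) and Mlkl (3.07 to 4.7) overlapped, as did those of Nlrp3 (2.48 to 3.28), Aim2 (2.53 to 2.97) and Pycard (1.85 to 3.1). Across all libraries the spread was smallest for Mlkl (coefficient of variation 10.5%) and largest for Pycard (21.8%).

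**Figure D1:**
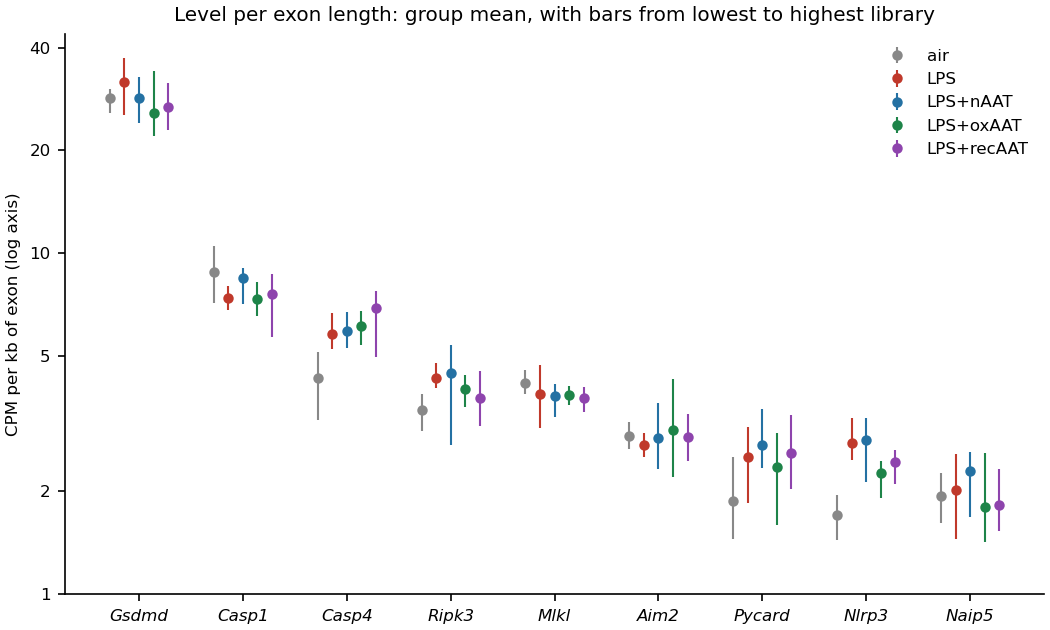
Level of each gene per kb of exon (CPM per kb, log axis) by group, with points for the group means and bars from the lowest to the highest library. Gsdmd lies apart at 22 CPM per kb or more, and the lowest values belong to Nlrp3, Pycard and Naip5.

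LPS against air asks what the aerosol did to these genes in lungs given saline. Nlrp3 was the gene of the 9 that rose; none fell. That is 1 of 9 called in either direction, where 4.39% of all tested genes were called (2.71% higher). The median log2 fold change of the 9 was 0.15, against -0.01 over all tested genes. The groups did not overlap for 3 of the 9 genes, Nlrp3, Casp4 and Ripk3, all higher after LPS, where 11.3% of all tested genes did not overlap (5.31% higher).

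Nlrp3, the sensor of membrane damage and ion efflux, spans chr11:59541568-59566956 on the plus strand of GRCm38, with 4.06 kb of exon. Its level was 7, 7.91 and 5.86 CPM in the air libraries and 10.1, 10.6, 10.9, 11.4 and 13.3 CPM after LPS. Every LPS library lay above every air library, and the counts behind the values were 155 to 244 in air and 212 to 374 after LPS. The mean rose from 6.92 ± 1.03 CPM (SD, n = 3) to 11.3 ± 1.23 CPM (SD, n = 5), a 1.62-fold increase (95% confidence interval 1.33 to 1.99), with a log2 fold change of 0.70 ± 0.14 (SE) and an adjusted p of 0.00335 in edgeR's quasi-likelihood test. Without air replicate 2105, the lowest library, the log2 fold change was 0.59 (adjusted p = 0.0438).

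The other sensors gave no call. Aim2, which binds cytosolic double-stranded DNA (chr1:173350879-173466040, plus strand), had 9.3 to 11.2 CPM in air and 8.85 to 10.4 CPM after LPS, with a log2 fold change of -0.09 (95% interval -0.45 to 0.26, adjusted p = 0.836). Naip5, a receptor for bacterial flagellin that works with Nlrc4 (chr13:100211739-100246323, minus strand), had 8.43 to 11.8 CPM in air and 7.57 to 13.4 CPM after LPS, with a log2 fold change of 0.05 (-0.35 to 0.45, adjusted p = 0.925). In both cases the LPS libraries overlapped the air libraries. Naip5 has close paralogs (Naip2 at 16.6 ± 2.31, Naip6 at 3.8 ± 0.76 and Naip1 at 0.334 ± 0.253 CPM after LPS). Reads without a unique alignment, 4.09% to 6.08% per library, were tallied apart, so its counts may lack reads that match these paralogs equally well.

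Pycard, the adaptor that links sensors to caspase-1 (chr7:127989708-127993867, minus strand), was measured at 5.52, 6.36 and 9.56 CPM in air. After LPS its values were 11.8, 11, 9.21, 8.82 and 7.04 CPM. The highest air library exceeded 3 of the 5 LPS libraries, so the groups overlapped. The log2 fold change was 0.42 (95% interval -0.02 to 0.87, adjusted p = 0.304), and 485 bases of its exons lie opposite an exon of Gm45205, a gene model on the other strand. Whether the counting used strand was not given among the sources used here.

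The inflammatory caspases lie side by side on the plus strand of chromosome 9, Casp1 at chr9:5298517-5307265 and Casp4 at chr9:5308828-5336783, with 1562 bases between them. Casp4, known in the mouse as caspase-11, binds intracellular LPS and cleaves gasdermin D in the non-canonical pathway. Its level was 12.1, 19.1 and 16.7 CPM in air and 19.5, 22.7, 20.6, 19.4 and 24.8 CPM after LPS. The groups were apart by a narrow margin, since air replicate 2102 came close to the lowest LPS libraries. The log2 fold change of 0.42 ± 0.15 (95% interval 0.12 to 0.73) had an unadjusted p of 0.00808 and an adjusted p of 0.106, which missed the threshold.

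Casp1, which matures interleukin-1 beta and interleukin-18, was at 10.7, 13 and 15.8 CPM in air and at 11.1, 10.2, 11.3, 10.7 and 12 CPM after LPS. The LPS libraries sat within or just below the lower part of the air range. The log2 fold change was -0.25 (95% interval -0.53 to 0.03, adjusted p = 0.35), so a 2-fold rise lies outside the interval. Whether Casp1 and Casp4 differed from each other in their response was not tested.

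Gsdmd, the pore-forming substrate of both caspases (chr15:75862327-75867408, plus strand), was at 71.8, 61 and 70.4 CPM in air. After LPS its values were 76.1, 88.6, 60.1, 80.2 and 71.2 CPM, spread on both sides of the air libraries. The log2 fold change was 0.15 (95% interval -0.15 to 0.45, adjusted p = 0.642).

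Of the necroptosis pair, Ripk3 encodes the kinase and Mlkl the pseudokinase that permeabilizes the membrane. Ripk3 (chr14:55784995-55788865, minus strand) was at 8.01, 6.91 and 8.84 CPM in air and at 10.9, 10.2, 9.3, 9.77 and 9.24 CPM after LPS. All LPS libraries were above all air libraries, but the log2 fold change of 0.32 (95% interval -0.02 to 0.66) had an adjusted p of 0.312. Mlkl (chr8:111311797-111338177, minus strand) had 8.92 to 10.5 CPM in air and 7.07 to 10.8 CPM after LPS, with a log2 fold change of -0.11 (-0.38 to 0.16, adjusted p = 0.729).

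**Figure D2:**
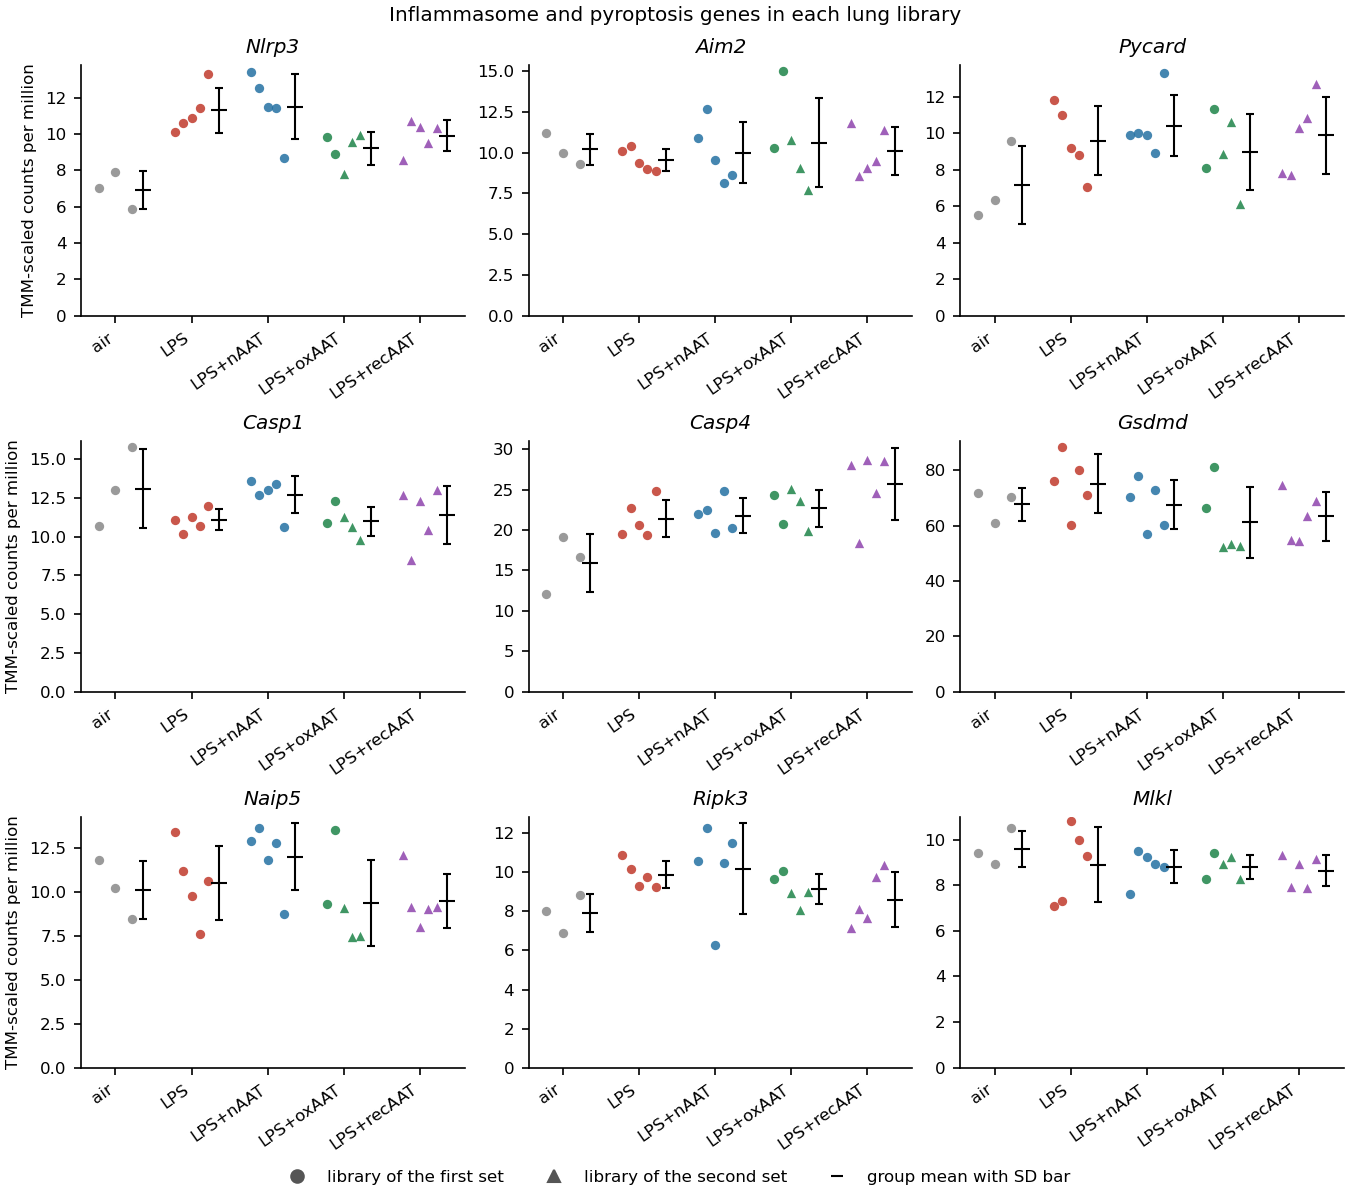
Level of the 9 genes (TMM-scaled CPM, each panel from 0) in every library by group, with circles for the first and triangles for the second library set, and the group mean with its SD beside them. Nlrp3 is at 5.86 to 7.91 CPM in air and at 10.1 to 13.3 CPM after LPS.

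Summed markers of myeloid and dendritic cells were higher after LPS as well, while those of lymphocytes overlapped air. A sum is led by the genes of highest level, and most genes of these lists were not called. Among all tested genes 4.39% were called in LPS against air (2.71% higher). Median log2 fold changes were 0.52 for the neutrophil, 0.1 for the monocyte, 0.21 for the alveolar macrophage and 0.05 for the dendritic cell list. Summed over 14 neutrophil markers the air libraries had 338 to 406 CPM and the LPS libraries 437 to 585 CPM, and 2 of the 14 were called higher (Il1r2 and Clec4d, log2 fold changes 2.06 and 1.37). The 14 monocyte and macrophage markers summed to 604 to 667 CPM in air and 861 to 968 CPM after LPS, with 4 called higher, among them Cd14 (2.23) and C1qc (0.89). Mean Cd14 went from 28.5 to 134 CPM and Chil3 from 193 to 287 CPM, while the lowest log2 fold change in the list was -0.67. The 12 alveolar macrophage markers summed to 664 to 747 CPM in air and 790 to 981 CPM after LPS, with 4 called higher, Marco (2.60) among them, and 1 lower. The list was mixed: mean Car4 went from 190 to 314 CPM, but Ear2 from 89.2 to 58.6 and Siglecf from 22.8 to 16.7 CPM. The sums of these 3 lists were apart between the groups, as Nlrp3 was.

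The 10 dendritic cell markers summed to 137 to 170 CPM in air and 227 to 242 CPM after LPS, with 2 called higher, Ccl22 and Itgax. Much of that rise was Itgax, whose mean was 70.6 CPM in air and 145 CPM after LPS. T and NK cell markers summed to 93.8 to 129 CPM in air and 87.7 to 144 CPM after LPS (0 of 13 called), and B cell markers to 308 to 356 and 292 to 444 CPM (0 of 9 tested called). Genes of the cell cycle rose together: 10 of 10 were called higher (median log2 fold change 1.19), where 2.71% of all tested genes were. Their sums were 49.8 to 60.4 CPM in air and 109 to 145 CPM after LPS. None of the markers of these lists was at 0 in all libraries of a group. The part of cell composition and of cell division in the Nlrp3 difference was not tested.

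The 3 AAT preparations were each set against LPS with saline to ask whether they altered the response. None of the 9 genes was called in any of the 3 comparisons. For native AAT this is 0 of 9, where 0.595% of all tested genes were called; log2 fold changes ran from -0.15 (Gsdmd) to 0.19 (Casp1 and Naip5), adjusted p-values from 0.464 to 0.961, and 0 of 9 had an unadjusted p under 0.05. The 95% intervals of the 9 folds lay between 0.751 and 1.45, which bounds the changes but does not show that the groups were alike. Nlrp3 after native AAT was at 13.4, 12.5, 11.5, 11.4 and 8.65 CPM, around the LPS values, with a log2 fold change of 0.03 (95% interval -0.21 to 0.27).

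For oxidized AAT, 0 of 9 genes were called against LPS, where 4.71% of all tested genes were, and 2 of 9 had an unadjusted p under 0.05, Nlrp3 and Gsdmd, both lower. Nlrp3 was at 9.84, 8.88, 7.8, 9.55 and 9.93 CPM. All 5 values were below the lowest LPS library, a separation found toward lower values in 1.03% of all tested genes (2.5% in either direction). The log2 fold change was -0.29 ± 0.12 (95% interval -0.54 to -0.05), with an unadjusted p of 0.0215 and an adjusted p of 0.162, which missed the threshold. In the first set of libraries alone, with LPS+oxAAT replicates 5101 and 5102, it was -0.27 (adjusted p = 0.999).

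Gsdmd after oxidized AAT was at 66.3 and 81.2 CPM in the first-set replicates 5101 and 5102 and at 52.4, 53.3 and 52.6 CPM in the second-set replicates 5103, 5104 and 5105. The values therefore split by library set within a single treatment group. Against LPS the log2 fold change was -0.30 ± 0.13 (adjusted p = 0.185), and with the library set as a term in the model it was -0.03 (adjusted p = 0.998). LPS+recAAT, all in the second set, had 74.8, 55, 54.5, 63.5 and 69.1 CPM, with a log2 fold change of -0.25 against LPS (adjusted p = 0.241) that became 0.24 (adjusted p = 0.829) with the set as a term.

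For recombinant AAT, 0 of 9 genes were called against LPS, where 8.49% of all tested genes were, and 1 of 9, Casp4, had an unadjusted p under 0.05. Casp4 was at 28.1, 18.4, 28.7, 24.6 and 28.6 CPM. Replicate 6102 fell below all LPS libraries, and 3 of the 5 lay above all of them. The log2 fold change was 0.26 ± 0.12 (95% interval 0.01 to 0.52, unadjusted p = 0.0446, adjusted p = 0.199). Over the 9 genes the 95% intervals of the folds lay between 0.704 and 1.43 for recombinant and between 0.679 and 1.37 for oxidized AAT.

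**Figure D3:**
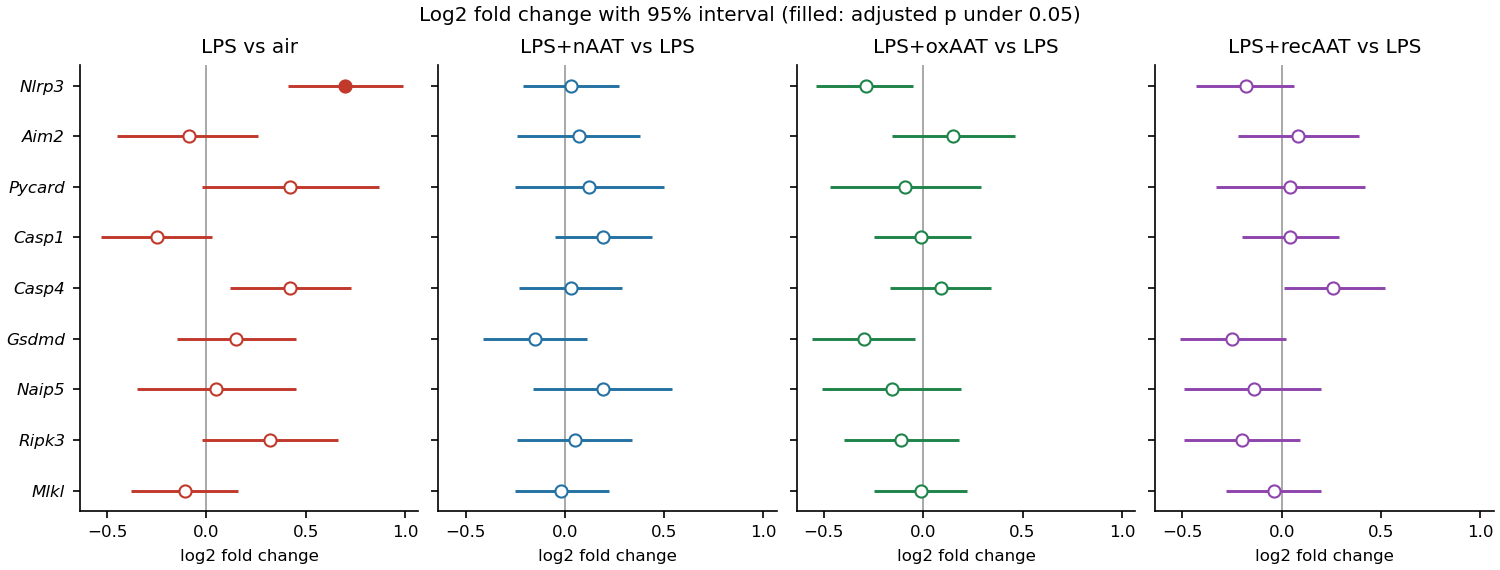
Log2 fold change of each gene with its 95% confidence interval, for LPS over air and for the AAT groups over LPS, with filled points for an adjusted p under 0.05. Nlrp3 in LPS against air (0.70) is the filled point, and each interval of the AAT comparisons lies within a fold of 0.679 to 1.45.

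Each AAT group was also compared with air; these comparisons and LPS against air share the 3 air libraries. Nlrp3 was called higher after LPS+nAAT and LPS+recAAT but not after LPS+oxAAT, and Casp4 after LPS+recAAT. For LPS+nAAT 1 of 9 genes was called, higher (5.62% of all tested genes were called, 3.95% higher): Nlrp3, at 11.5 ± 1.77 CPM (SD, n = 5), with a log2 fold change of 0.73 ± 0.14 and an adjusted p of 0.00141 in edgeR's quasi-likelihood test. Ripk3 was called as well without nAAT replicate 4103 (adjusted p = 0.0272), and Casp4 without air replicate 2102 (adjusted p = 0.0381). The groups were apart for 2 of 9 genes, Nlrp3 and Casp4 (13.2% of all tested genes, 6.95% higher). Casp4 was at 22, 22.5, 19.6, 24.9 and 20.2 CPM, all above the air libraries, with a log2 fold change of 0.45 ± 0.15 and an adjusted p of 0.075.

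For LPS+oxAAT 0 of 9 genes were called against air, where 3.76% of all tested genes were, and 2 of 9 had an unadjusted p under 0.05. Casp4, at 24.4, 20.8, 25.1, 23.6 and 19.9 CPM, was the 1 gene whose libraries were apart from air (9.88% of all tested genes, 5.53% higher). Its log2 fold change was 0.51 ± 0.15 and its adjusted p 0.0508, at the edge of the threshold, and it was called without air replicate 2102 (0.0287), without oxAAT replicate 5102 (0.0298) or without oxAAT replicate 5105 (0.0456). Nlrp3 in these libraries overlapped air at a single point, oxAAT replicate 5103 with 7.8 CPM against air replicate 2102 with 7.91 CPM, and its log2 fold change was 0.41 ± 0.14 (adjusted p = 0.125).

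For LPS+recAAT 2 of 9 genes were called against air, both higher, where 6.83% of all tested genes were called (4.21% higher). Casp4 rose to 25.7 ± 4.41 CPM (SD, n = 5) from 15.9 ± 3.57 CPM (SD, n = 3), a 1.61-fold increase (95% interval 1.3 to 1.99, log2 fold change 0.69 ± 0.15, adjusted p = 0.00366). The groups still overlapped, through recAAT replicate 6102. Nlrp3, at 8.56, 10.7, 10.4, 9.51 and 10.3 CPM, was above all air libraries, with a 1.43-fold increase (1.17 to 1.75, log2 fold change 0.52 ± 0.14, adjusted p = 0.0235). It was the 1 gene apart from air in that comparison (16.1% of all tested genes, 9.04% higher).

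Both calls were lost in some of the 18 alternatives: Nlrp3 was called in 13 and Casp4 in 16. Without air replicate 2101 neither gene was called (Nlrp3 0.52, adjusted p = 0.0796; Casp4 0.52, adjusted p = 0.055). Nlrp3 was also not called without air replicate 2105 (0.41, adjusted p = 0.16) or without recAAT replicate 6102 (0.48, adjusted p = 0.0528). With the library set as a term the sizes were close to those without it and neither was called (Casp4 0.67, adjusted p = 0.181, and Nlrp3 0.55, adjusted p = 0.26). That term took the count over all genes from 1171 to 278.

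The same marker sums were compared with air in the AAT groups. Among all tested genes, 5.62% were called against air in LPS+nAAT, 3.76% in LPS+oxAAT and 6.83% in LPS+recAAT. Monocyte markers summed to 887 to 1210 CPM in LPS+nAAT, 785 to 980 in LPS+oxAAT and 690 to 981 in LPS+recAAT, all above air. Median log2 fold changes of the monocyte list were 0.36, 0.15 and 0.27, in that order. Neutrophil markers summed to 399 to 840, 321 to 462 and 318 to 540 CPM, each of which overlaps the air range of 338 to 406 CPM. Alveolar macrophage markers summed to 974 to 1090, 780 to 1040 and 675 to 892 CPM, of which the last overlaps air (4 of 11 called higher and 2 lower in LPS+recAAT, median log2 fold change 0). Cell cycle genes were called higher than air in 10 of 10 cases in each AAT group. Their part in the Nlrp3 and Casp4 differences was not tested.

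Among the AAT preparations, given at the same dose and time, 3 pairs were compared and 0 of 9 genes were called in each. The background was 0.344% of all tested genes for oxidized against native, 1.93% for recombinant against native and 0.0175% for recombinant against oxidized AAT. The lowest unadjusted p belonged to Nlrp3, lower after oxidized than after native AAT with a log2 fold change of -0.32 ± 0.12 (95% interval -0.57 to -0.08, unadjusted p = 0.0123, adjusted p = 0.261); Naip5 in the same pair gave -0.35 ± 0.17 (adjusted p = 0.411). The 95% intervals of the folds of the 9 genes lay between 0.617 and 1.31, between 0.624 and 1.4, and between 0.766 and 1.42 in the 3 pairs, in that order.

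The cytokines, receptors and regulators around the 9 genes were followed in 6 further lists. Calls after LPS were in the interleukin-1 and interleukin-18 list and the necroptosis regulators. Of 11 interleukin-1 and interleukin-18 genes, 4 rose and 0 fell in LPS against air (median log2 fold change 0.16), where 4.39% of all tested genes were called (2.71% higher). Il1b, the cytokine that caspase-1 matures, rose from 24.8 ± 6.23 (SD, n = 3) to 51.1 ± 12.1 CPM (SD, n = 5; log2 fold change 1.04 ± 0.23, adjusted p = 0.00884 in edgeR's quasi-likelihood test). The other 3 encode inhibitors of the pathway.

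Il1rn, the receptor antagonist, rose from 12.5 ± 1.44 to 38 ± 3.59 CPM (log2 fold change 1.60 ± 0.14, adjusted p = 3.1e-08). Il1r2, a decoy receptor that is also in the neutrophil marker list, rose from 0.802 ± 0.21 to 3.39 ± 1.02 CPM (2.06 ± 0.34, adjusted p = 0.000406). Il18bp, which binds interleukin-18, rose from 8.8 ± 0.833 to 12.4 ± 0.576 CPM (0.50 ± 0.14, adjusted p = 0.0375). Il18, the other caspase-1 substrate, was at 21.2 ± 2.88 CPM in air and 20.3 ± 3.93 CPM after LPS (-0.06, adjusted p = 0.874).

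Il1b, Il1rn and Il1r2 were called higher than air in the 3 AAT groups too. Their log2 fold changes against air were 1.17, 1.93 and 2.61 with native, 1.18, 1.82 and 2.02 with oxidized, and 1.34, 1.74 and 2.48 with recombinant AAT. Il18bp, the fourth gene called after LPS, was called against air in LPS+oxAAT (0.49, adjusted p = 0.043) but not in LPS+nAAT (0.41, adjusted p = 0.0896) or LPS+recAAT (0.38, adjusted p = 0.105). Against LPS none of the 4 was called in any AAT group. With the library set as a term, Il1b after LPS+recAAT lost its call (1.33, adjusted p = 0.0779), as did Il18bp after LPS+oxAAT (0.43, adjusted p = 0.287). Over all genes that term took the count from 1171 to 278 and from 645 to 336 in these 2 comparisons. Il18r1, not called after LPS alone, was called higher than air in LPS+nAAT (0.42, adjusted p = 0.00364).

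**Figure D4:**
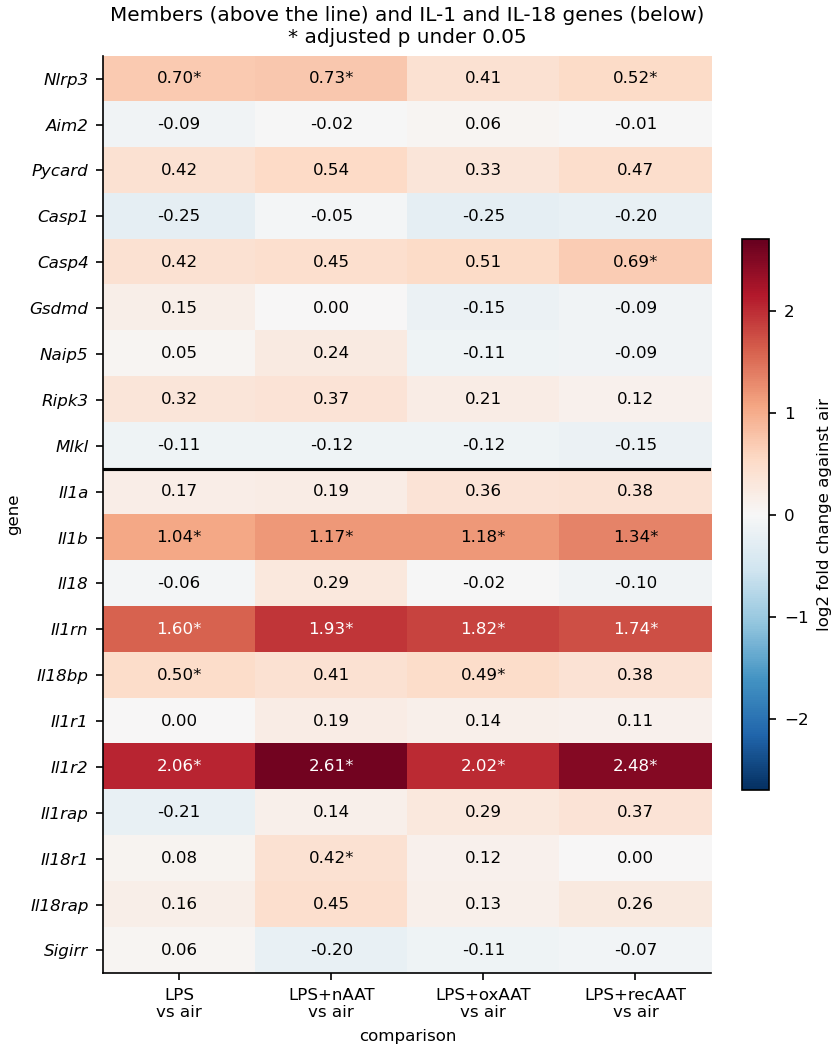
Colour map of the log2 fold change against air of the 9 genes (above the line) and the 11 interleukin-1 and interleukin-18 genes (below it), in the LPS group and the 3 AAT groups, with a star for an adjusted p under 0.05. Il1rn (1.60 to 1.93) and Il1r2 (2.02 to 2.61) have higher values than Nlrp3 (0.41 to 0.73) in every column.

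Of 17 regulators of necroptosis and of signalling from the tumour necrosis factor receptor, 3 rose and 0 fell in LPS against air (median 0.14). Among all tested genes 2.71% were called higher there. Birc3, a ubiquitin ligase, rose from 57.3 ± 1.7 to 77.4 ± 7.44 CPM (log2 fold change 0.43 ± 0.09, adjusted p = 0.00304). Tnfaip3, which encodes the NF-kB inhibitor A20, rose from 39.4 ± 2.71 to 52.1 ± 5.22 CPM (0.40 ± 0.08, adjusted p = 0.00406). Traf2, a signalling adaptor of the same receptor, rose from 36.4 ± 0.807 to 45.7 ± 3.59 CPM (0.33 ± 0.08, adjusted p = 0.0219).

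No gene was called in LPS against air in the other 4 lists. They held 14 tested of 17 other sensors (median log2 fold change 0.14), 17 of 18 licensing factors of inflammasomes (0.12), 4 of 9 other gasdermins and membrane rupture factors (0.20) and 7 of 8 other caspases (-0.14). The median over all tested genes was -0.01.

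**Figure D5:**
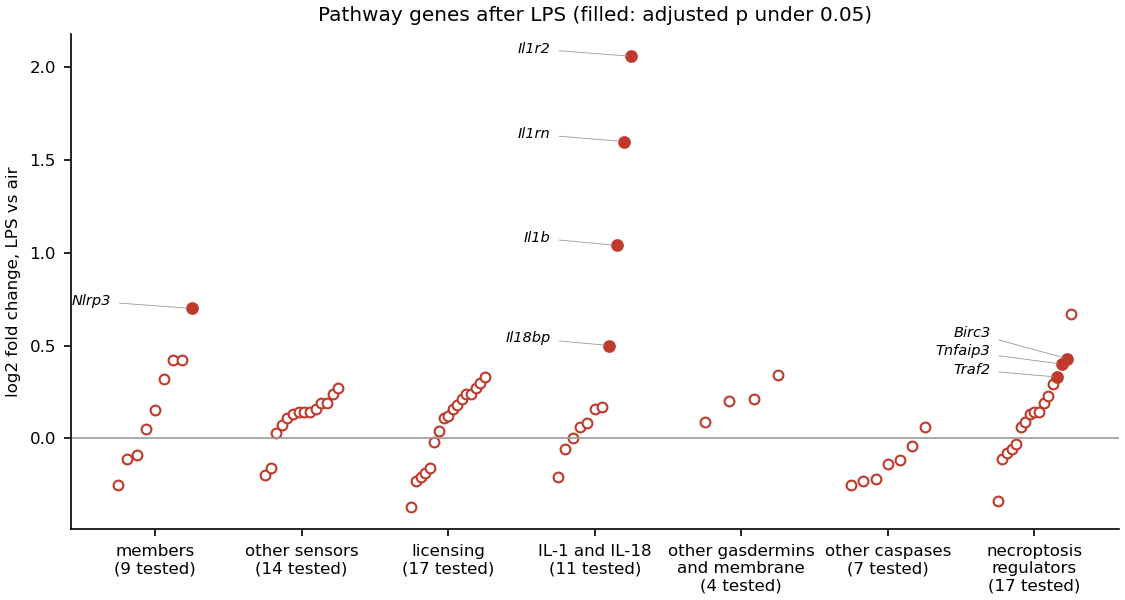
Log2 fold change in LPS against air of each tested gene of the 9 and of 6 surrounding lists, sorted within a list, with filled, named points for an adjusted p under 0.05. The filled points are Nlrp3, 4 interleukin-1 and interleukin-18 genes and 3 necroptosis regulators.

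Zbp1, a nucleic acid sensor that engages Ripk3, was at 8.4 ± 1.16 CPM in air and 13.4 ± 0.943 CPM after LPS, with a log2 fold change of 0.67 that missed the threshold (adjusted p = 0.0782). Against air it was called higher in LPS+nAAT (0.73, adjusted p = 0.0467), LPS+oxAAT (0.89, adjusted p = 0.0153) and LPS+recAAT (0.86, adjusted p = 0.0128). With the library set as a term none of the 3 was called (adjusted p = 0.0501, 0.086 and 0.232). For LPS+nAAT against air, all in the first set, that term could not test a set effect. Against LPS the Zbp1 log2 fold changes were 0.05, 0.22 and 0.19 in the 3 AAT groups (adjusted p = 0.922, 0.512 and 0.553), so its level in AAT groups was not shown to differ from that after LPS alone. Birc3 was called higher than air in the 3 AAT groups as well (0.37, 0.38 and 0.52, adjusted p = 0.00913, 0.00944 and 0.000258), and with the library set as a term its call in LPS+oxAAT was lost (adjusted p = 0.0556).

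In the AAT groups against LPS a few pathway genes were called, and none was among the 9. After native AAT, Il18r1, the interleukin-18 receptor, rose from 148 ± 14.3 to 186 ± 12.7 CPM (log2 fold change 0.33 ± 0.08, adjusted p = 0.0391). Tnfaip3 fell from 52.1 ± 5.22 to 41.8 ± 1.87 CPM (-0.32 ± 0.07, adjusted p = 0.0367). Both were 1 of their list, of 11 and of 17, and both were called also with the library set as a term. All libraries of these groups were in the first set, so that term could not test a set effect here.

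After oxidized AAT, Brcc3, a deubiquitinase that licenses NLRP3, rose from 17.7 ± 1.74 to 24.4 ± 3.7 CPM (log2 fold change 0.46 ± 0.11, adjusted p = 0.0138), and Traf2 fell by 0.26 (adjusted p = 0.04). After recombinant AAT, Brcc3 was at 26.3 ± 2.18 CPM (0.57 ± 0.11, adjusted p = 0.00164). The receptor subunit Il1rap (0.58, adjusted p = 0.0423) was also called higher and the adaptor Ticam1 lower (-0.32, adjusted p = 0.0303). With the library set as a term none of these 5 differences was called, with adjusted p from 0.6 (Ticam1) to 0.965 (Il1rap), and Brcc3 was at 0.26 and 0.24. That term left 6 of all tested genes called in LPS+oxAAT against LPS and 0 in LPS+recAAT against LPS. Between the preparations, recombinant against native AAT gave Brcc3 higher (0.41, adjusted p = 0.0407) and Il18r1 lower (-0.41, adjusted p = 0.00636). Neither was called with the set as a term (adjusted p = 0.872 and 0.362). In this pair the term took the count over all genes from 331 to 0, so it cannot decide about single genes.

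To describe which genes varied most like each of the 9, Pearson correlations of log2 CPM were taken over all 23 libraries against 13060 genes. The libraries share treatment, depth and library set, so these values are a description. Nlrp3 ran closest with the myeloid receptor genes Clec4d (r = 0.83), Csf2rb (0.82) and Siglece (0.81). Gsdmd ran closest with Stap2, Rhno1 and Ap1g2 (each 0.92), the highest values of any of the 9.

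For Pycard the closest were Uqcc3 (0.87), Cd52 (0.87) and Gpx1 (0.85), and for Casp4 Snrpg (0.83), Ccl12 (0.81) and AU040972 (0.80). Casp1 had Armc10 (0.75), Ppp2r2d (0.74) and Ifitm6 (0.73). Aim2 had Gpr132 (0.86), Magohb (0.81) and Sft2d1 (0.80), and Naip5 had Terf2 (0.80), Brd7 (0.79) and Exoc1 (0.79). Ripk3 ran closest with Ptpn6 (0.76), Eno1 (0.75) and Yars (0.75), and Mlkl with Cd34 (0.76), Fam114a1 (0.74) and Tnfrsf19 (0.73).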

How the data were processed

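RNA-seq counts per Ensembl gene were deposited by the authors without normalization. The kit was stranded with poly(A) selection, according to the labels. The submitters' processing notes name HTSeq 0.11.1, STAR 2.4.0.1, Trimmomatic 0.36 and 0.38, FastQC 0.11.8 and genome GRCm38. The annotation release and strand setting were not given among the sources used here. The 5 summary lines of the table were left out; reads on no feature were 6.79% to 13.1% per library.

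Counts of all 23 libraries were fitted together, with 1 mean for each group (edgeR 4.0.16 in R 4.3.3, TMM factors 0.978 to 1.03, filterByExpr, robust quasi-likelihood F test, two-sided) for 10 comparisons, with Benjamini-Hochberg adjustment over 17148 genes. Confidence intervals are at 95%. The p-values rest on the variation between mice. Fits were tested on simulated data. Alternatives used DESeq2 1.42.0, limma 3.58.1 (voom), other filters and scalings, the library set as a term, and leaving out each library.

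All 9 genes were named; of each pathway list, called genes were named, at most 4 per comparison, and of marker lists at most 3; 1 gene of this rule is not reported here. Likeness took the 3 genes of highest correlation. Il18, the Naip paralogs and Zbp1 in LPS against air were named after their values were seen. The members and lists were chosen with earlier results of these data known.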

Additional observations from a re-analysis of the deposited data

Results flagged for a closer look

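Of 36 sets of 5 libraries (9 genes in 4 groups of 5), 2 held a library that stood apart from the other 4, and chance alone flags about 1 in 20. Pycard in LPS+nAAT replicate 4105 was at 13.3 CPM, while the other 4 libraries of that group had 8.93 to 10 CPM, a gap of 0.746 of the group's range against a critical value of 0.71. Naip5 in LPS+recAAT replicate 6101 was at 12.1 CPM, while the other 4 had 7.98 to 9.12 CPM, a gap of 0.721 of the range. Neither gene was called in a comparison of its group.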

How the results depend on the processing

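For single genes, 90 values were recomputed under the alternatives, giving 1782 values: 1649 kept direction and side of the threshold, 7 lost a call, 16 gained one, 0 reversed a call and 110 changed sign without a call. Nlrp3 in LPS against air was called in all 19 alternatives (log2 fold change 0.59 to 0.81, adjusted p 0.000102 to 0.0438), and in LPS+nAAT against air also in all 19. The cause of the following changes in the count of the 9 genes called was not tested. In LPS+oxAAT against LPS it was 1 (Gsdmd, -0.38, adjusted p = 0.0431) with limma voom and 0 to 1 leaving out a library, the 1 being Gsdmd without oxAAT replicate 5102 (-0.41, adjusted p = 0.0257). The count over all genes moved as well, from 808 to 1688 with voom and to 1881 without replicate 5102. In LPS+nAAT against air it was 2 with the DESeq2 Wald test, 3 with voom and 1 to 2 leaving out a library. Over all genes the count there was 964 in the main fit, 1228 with the Wald test and 1766 with voom. In LPS+oxAAT against air it was 1 (Casp4) with DESeq2 size factors, no filter, a stricter filter, the DESeq2 Wald test and voom, and 0 to 1 leaving out a library. In LPS+recAAT against air it was 1 at an adjusted p under 0.01, 0 with the library set as a term, 3 with voom and 0 to 2 leaving out a library. Over all genes the 1171 called became 634 at 0.01, 278 with the set as a term and 2312 with voom.

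With the library set as a term, the count over all genes fell from 808 to 6 in LPS+oxAAT against LPS and from 1456 to 0 in LPS+recAAT against LPS. With the 2 groups alone it was 15 and 1097. In LPS+recAAT against LPS+nAAT the set term took it from 331 to 0. The first set alone gave no LPS+recAAT comparison. The labels do not say whether the last digit of the mouse number pairs the samples. Deviations from the group means had a median r of 0.03 in 42 same-digit pairs and -0.03 in 168 others. These medians are a description and cannot decide whether mice were paired. Used as a replicate block, the digit left the count of the 9 genes called at 1 in LPS against air. The count was 1, 0 and 2 in LPS+nAAT, LPS+oxAAT and LPS+recAAT against air, and 0 elsewhere. Over all genes the block moved the count called from 753 to 1364 in LPS against air, from 102 to 248 in LPS+nAAT against LPS and from 59 to 24 in LPS+oxAAT against LPS+nAAT, and by less than 1.5 times in the other comparisons. Counts were 117 to 3311 reads per gene and library; whether depth limits the differences seen was not tested.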
